A study of Mus musculus with 2 samples.

Results

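The Slc25a genes encode the mitochondrial carriers, and their histone H3 lysine 36 trimethylation (H3K36me3) was examined in primary keratinocytes (KCs) of mouse skin. Members were the protein-coding genes whose symbol is Slc25a followed by a number, which gave 47 of the 21938 protein-coding genes in the GENCODE vM21 annotation of GRCm38. Peaks were given to a member in 2 ways. A peak was on the body when at least 1 base lay between the ends of the gene, and it was assigned when the deposited annotation, which goes by transcription start sites, carried the member's symbol.

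The study asked how the histone methyltransferase SETD2 acts in skin, and its chromatin data are 1 H3K36me3 ChIP library and 1 input library. Both came from 10-week-old C57BL/6 mice of genotype Setd2fl/fl, in which both Setd2 alleles carry loxP sites and no Cre is named, so Setd2 was intact. KCs were isolated enzymatically from the epidermis, fixed in 1% formaldehyde (for 10 min by the labels, a shorter time by the methods), and the libraries were amplified over 15 cycles and read at 75 nt from a single end. The peak table of the ChIP library was analysed here. There was no replicate and no Setd2-deficient library, so no difference was tested, and the read depth behind the peaks was unknown.

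Mitochondrial carriers are small membrane proteins made in the cytosol, imported, and inserted mostly into the inner mitochondrial membrane, where they exchange nucleotides, phosphate, keto acids, amino acids and cofactors between cytosol and matrix. Many substrates have a set of paralogs, of which some are used by nearly all cells and others by the liver, the brain, muscle, red cell precursors or the testis. H3K36me3 is laid down by SETD2 travelling with elongating RNA polymerase II, so it is known to lie over the bodies of transcribed genes and to grow towards their 3′ ends. By their known expression 23 members were classed as broadly expressed, 13 as tissue-restricted and 11 as mixed or uncertain, and a gene's class was set from background knowledge and not from these data.

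Promoters are shown for 6 members because they pair marked and unmarked members that share a substrate or lie next to each other. Slc25a4 and Slc25a5 encode ADP/ATP carriers and had a peak on the body, whereas Slc25a31, the testis ADP/ATP carrier, had none. Slc25a54 and Slc25a43 had no peak either, and each lies next to a marked member, Slc25a24 and Slc25a5, with no protein-coding gene between. The windows run from 250 bases before to 50 bases after the RefSeq start on GRCm38.p6 and are written 5′ to 3′ on the gene's strand, with each CpG in capitals. They are chr8:46211013-46211312 on the minus strand for Slc25a4, chrX:36795347-36795646 on the plus strand for Slc25a5, chr3:40708621-40708920 on the plus strand for Slc25a31, chrX:36743382-36743681 on the plus strand for Slc25a43, chr3:109122899-109123198 on the plus strand for Slc25a24 and chr3:109080249-109080548 on the plus strand for Slc25a54.
Slc25a4: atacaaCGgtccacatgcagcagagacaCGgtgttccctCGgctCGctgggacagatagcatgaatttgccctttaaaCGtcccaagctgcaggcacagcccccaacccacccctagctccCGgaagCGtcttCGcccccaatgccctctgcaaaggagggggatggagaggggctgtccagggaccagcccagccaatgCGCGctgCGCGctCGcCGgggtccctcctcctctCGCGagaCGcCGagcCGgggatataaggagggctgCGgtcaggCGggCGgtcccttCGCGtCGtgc
Slc25a5: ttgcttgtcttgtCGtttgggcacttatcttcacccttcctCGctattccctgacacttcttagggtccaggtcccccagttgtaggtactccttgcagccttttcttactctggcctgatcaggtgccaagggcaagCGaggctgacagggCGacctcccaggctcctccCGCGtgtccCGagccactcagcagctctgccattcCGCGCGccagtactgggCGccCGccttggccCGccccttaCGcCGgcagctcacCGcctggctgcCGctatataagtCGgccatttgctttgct
Slc25a31: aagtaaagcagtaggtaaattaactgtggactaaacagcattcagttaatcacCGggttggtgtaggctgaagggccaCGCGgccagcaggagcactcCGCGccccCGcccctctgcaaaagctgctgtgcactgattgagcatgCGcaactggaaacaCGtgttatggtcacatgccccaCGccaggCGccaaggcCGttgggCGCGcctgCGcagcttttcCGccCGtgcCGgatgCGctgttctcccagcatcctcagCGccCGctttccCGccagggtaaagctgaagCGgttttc
Slc25a43: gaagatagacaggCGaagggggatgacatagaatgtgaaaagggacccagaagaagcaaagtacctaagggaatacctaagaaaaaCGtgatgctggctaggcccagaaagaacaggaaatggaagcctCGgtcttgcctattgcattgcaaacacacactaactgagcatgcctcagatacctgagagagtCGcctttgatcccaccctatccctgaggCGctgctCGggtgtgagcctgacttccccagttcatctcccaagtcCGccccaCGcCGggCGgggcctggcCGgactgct
Slc25a24: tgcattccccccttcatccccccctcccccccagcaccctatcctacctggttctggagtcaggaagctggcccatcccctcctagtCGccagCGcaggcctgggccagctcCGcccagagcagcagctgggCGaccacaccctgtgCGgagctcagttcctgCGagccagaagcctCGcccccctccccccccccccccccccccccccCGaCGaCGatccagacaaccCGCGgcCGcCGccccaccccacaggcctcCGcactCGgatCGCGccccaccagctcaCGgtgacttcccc
Slc25a54: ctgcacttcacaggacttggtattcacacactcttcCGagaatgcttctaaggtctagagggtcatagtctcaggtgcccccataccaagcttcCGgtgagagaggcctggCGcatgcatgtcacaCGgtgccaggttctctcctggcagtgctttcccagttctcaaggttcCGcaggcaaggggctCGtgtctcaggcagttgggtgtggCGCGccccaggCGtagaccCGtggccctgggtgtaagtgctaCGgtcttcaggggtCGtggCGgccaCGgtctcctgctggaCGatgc

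The 3 marked members of these comparisons held 25 CpGs (Slc25a4), 18 (Slc25a5) and 19 (Slc25a24) in the window, and the unmarked ones held 22 (Slc25a31), 11 (Slc25a43) and 15 (Slc25a54). The counts overlapped, and Slc25a31 carried more CpGs than Slc25a5 or Slc25a24. The RefSeq start of Slc25a4 lies 222 bp from its GENCODE 5′ end, where a window of the same size held 12 CpGs, fewer than the 21 of Slc25a31 there. Slc25a31 is known in mouse as a CpG-rich gene that is silent outside the germ line, where the repressor E2F6 has been linked to it. The letters TCCCGC, the core of many E2F sites, were searched on both strands and occurred once in the window of Slc25a31 and once in that of Slc25a5, and 26.7% of 16522 RefSeq promoters held them.

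Most carrier genes were marked. Of the 47 members, 39 had a peak on the body (83.0%, exact Clopper-Pearson 95% interval 69.2 to 92.4%), against 51.4% of all protein-coding genes. The interval covers counting error only, and genes of one family are not replicates. Among genes of 5000 to 100000 bp the shares were 31 of 37 members (83.8%) and 57.9% of 15306 genes. The deposited annotation assigned a peak to 34 members (72.3%), against 45.4% of all. At least 50% of the body lay inside peaks in 18 members (38.3%, interval 24.5 to 53.6%), against 23.8% of all.

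By P value, the share of strongly called genes was close to that of the genome. A peak with P below 1e-05 lay on 13 members (27.7%, interval 15.6 to 42.6%), against 24.6% of all protein-coding genes. A peak with a fold enrichment of at least 3 lay on 30 members (63.8%, interval 48.5 to 77.3%), against 42.6% of all. Among genes with a peak, the median covered share was 47.2% in members and 46.4% in all genes, and the median of the highest fold enrichment on the body was 3.23 in members and 3.36 in all. Fold enrichment is the ratio the peak caller gives for a peak's signal over its background. The 137 peaks on members had a median fold enrichment of 2.92, from 2.41 to 3.95, beside 2.90 over all 45575 peaks. Their median width was 2217 bp, from 253 to 31239 bp, beside 1614 bp over all peaks. The larger gap to the background was thus in the number of members with a peak, and the smaller one in the height of the peaks.

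**Figure D1:**
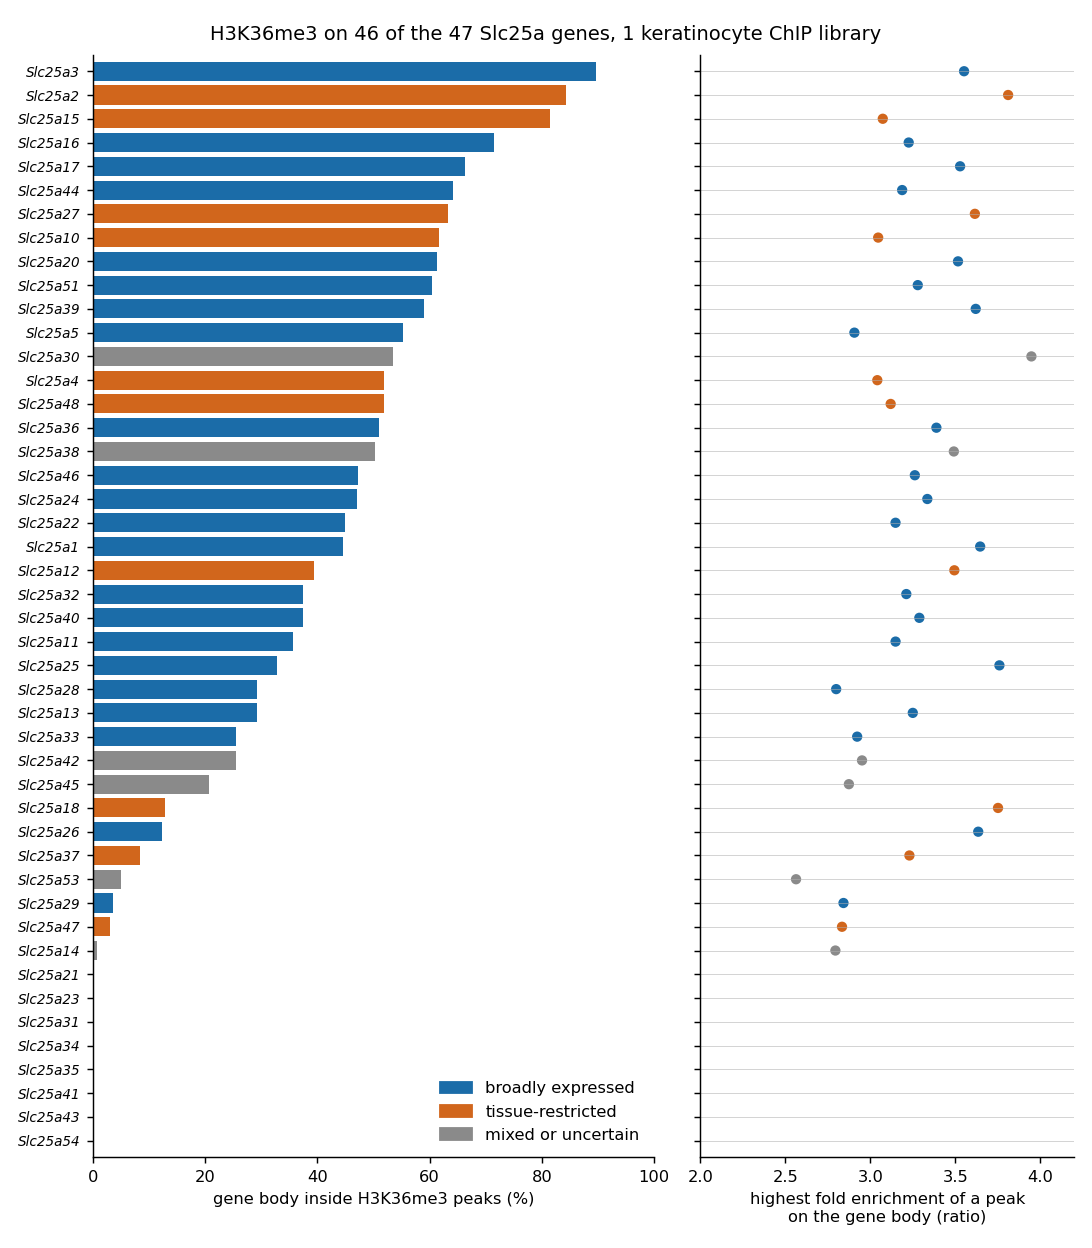
Each row is 1 of 46 of the 47 Slc25a genes, ordered by the percent of its gene body inside H3K36me3 peaks (left, bars), with the highest fold enrichment of a peak on its body (right, points, a ratio) and colours for the known breadth of expression. Covered shares run from 0% in 8 genes to 89.6% in Slc25a3, all blue bars are above 0, and the points lie between 2.56 and 3.95.

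The KC origin of the library was visible in marker genes. All 8 KC markers had a peak, with a median covered share of 94.3% (Krt14 at 89.9%). Their shares ran from 40.4% in Trp63 and 40.7% in Krt1 to 98.6% in Dsp. None of the 6 fibroblast markers had a peak. Of the markers of tissues in which the restricted carriers are best known, 0 of 4 hepatocyte, 0 of 4 neuron and astrocyte, 0 of 4 testis germ cell, 1 of 4 muscle (Ttn, 0.453% covered) and 1 of 4 erythroid genes (Alas2, 4.07%) had a peak. Of other skin cells, 1 of 4 endothelial (0.275%), 1 of 5 immune (10.2%) and 2 of 4 melanocyte markers (7.62 and 15.3%) had one. The immune marker Csf1r and the melanocyte markers Mitf and Pmel reached fold enrichments of 3.52, 3.46 and 3.91, each with P below 1e-05. The endothelial marker Pecam1 reached 2.58. The part of other cell types in the peaks of the carriers was not tested.

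All 23 broadly expressed members had a peak on the body (interval 85.2 to 100%), and 10 were covered over at least 50%. Of the 13 tissue-restricted members 10 had one (76.9%, interval 46.19 to 94.96%), and 6 were covered over at least 50%. Of the 11 mixed members 6 had one (54.5%, interval 23.4 to 83.3%), and 2 were covered over at least 50%. Over all protein-coding genes these shares were 51.4% and 23.8%, so the mixed members were close to the background. The median covered share with unmarked genes counted as 0% was 47.2% in broad, 39.3% in restricted and 0.766% in mixed members. The intervals of restricted and broad members overlapped, and the 3 restricted members without a peak, Slc25a31, Slc25a41 and Slc25a54, were the 3 known from the testis.

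Carriers of nucleotides and phosphate spanned the whole range, with 7 of 11 marked (63.6%, beside 51.4% of all genes). Slc25a3, the phosphate carrier that feeds ATP synthase (chr10:91116574-91124059, minus strand), had the largest covered share of all members. A single peak of 10905 bp lay over 89.6% of its 7486 bp, began 775 bp inside the gene and ran 4194 bp past its 3′ end, with a fold enrichment of 3.55 and a −log10 P of 5.77. Slc25a4, the ADP/ATP carrier of heart and skeletal muscle (chr8:46206797-46211284, minus strand), had 1 peak of fold enrichment 3.04 over 51.9% of the body. Slc25a5, the ADP/ATP carrier of dividing and most other cells (chrX:36795651-36798807, plus strand), had 1 peak of fold enrichment 2.91 over 55.3%. The covered shares of the muscle and the general paralog lay close together, and neither has a replicate.

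Slc25a31 (chr3:40708855-40726096, plus strand) had no peak on its 17242 bp. The deposited annotation nonetheless assigned it 3 peaks, of fold enrichment 2.74, 2.83 and 2.76, whose distances to its start were −15071, −10175 and −7267 bp. All 3 lay on Intu, a planar cell polarity gene upstream, of which 2.71% was covered. A count by symbol alone would place the testis carrier among the marked genes.

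The ATP-Mg/phosphate carriers, which load the matrix with adenine nucleotides, divided into marked and unmarked genes. Slc25a24 (chr3:109123149-109168457, plus strand) had 10 peaks of fold enrichment 2.51 to 3.34 over 47.2% of its body. Slc25a25 (chr2:32414487-32451445, minus strand) had 5 peaks over 32.8%, and the one at its 3′ end reached a fold enrichment of 3.76 and a −log10 P of 6.01. Slc25a23 (chr17:57043711-57059863, minus strand, 16153 bp), a paralog of mixed expression, had none, and neither did the testis genes Slc25a41 (chr17:57032773-57041654, minus strand) and Slc25a54 (chr3:109080469-109116687, plus strand, 36219 bp). The 2 pyrimidine nucleotide carriers were both marked, Slc25a33 over 25.6% and Slc25a36 over 51.0%.

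Among amino acid carriers 6 of 6 were marked (interval 54.1 to 100%), beside 51.4% of all genes. Slc25a12, the aspartate/glutamate carrier of brain and muscle (chr2:71271063-71367749, minus strand), had 19 peaks of fold enrichment 2.48 to 3.49 over 39.3% of its 96687 bp. Slc25a13, its paralog of liver and many other tissues (chr6:6041218-6217173, minus strand), had 25 peaks of fold enrichment 2.52 to 3.25 over 29.2% of its 175956 bp. The form known from fewer tissues thus had the higher covered share in this library. The glycine carrier Slc25a38 was covered over 50.3% and the branched-chain amino acid carrier Slc25a44 over 64.1%.

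The glutamate carriers differed in how much of the peak lay on the gene. Slc25a22 (chr7:141429744-141437892, minus strand) had 1 peak of fold enrichment 3.15 over 45.0% of its body. Slc25a18, its brain paralog (chr6:120773578-120794336, plus strand), had 1 peak of higher fold enrichment, 3.75, over 12.9%. That peak was 7280 bp wide, only 36.6% of it lay on Slc25a18, and it ran 4612 bp beyond the 3′ end into the convergent gene Atp6v1e1, a vacuolar proton pump subunit, of which 59.4% was covered. The source of a peak that spans convergent genes cannot be told apart in these data.

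Slc25a15, the liver ornithine carrier of the urea cycle (chr8:22375551-22398597, minus strand), was among the most fully covered members. It had 2 peaks, of 15046 bp with fold enrichment 3.02 and of 4208 bp with fold enrichment 3.07, over 81.4% of the body. The hepatocyte markers Alb, Apoa1, Ttr and Cps1, the last a urea cycle enzyme, had no peak. Slc25a29, a broadly expressed carrier of basic amino acids (chr12:108825873-108835883, minus strand), had 1 peak of 357 bp and fold enrichment 2.84 over 3.57% of its body. The order of known breadth and the order of covered share were therefore opposite in these relatives.

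Slc25a2, the other ornithine carrier, is a gene of 1369 bp, and 84.3% of it lay inside 1 peak of 5313 bp with fold enrichment 3.81. Only 21.7% of that peak lay on Slc25a2. The peak also covered 65.0% of Taf7, a subunit of the general transcription factor TFIID, and every covered base of Slc25a2 was shared with another protein-coding gene model, so its covered share clear of other genes was 0%. It was the only marked member in which the first peak base was at the 5′ end itself.

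Keto acid and citrate carriers had 3 of 4 members marked, beside 51.4% of all genes. Slc25a1, the citrate carrier that exports carbon for lipid synthesis (chr16:17925223-17928219, minus strand), had 1 peak of fold enrichment 3.65 over 44.6% of its body. Slc25a11, the oxoglutarate/malate carrier, was covered over 35.6%, and Slc25a10, the dicarboxylate carrier best known from liver, kidney and fat, over 61.6%. Slc25a21, an oxodicarboxylate carrier (chr12:56712634-57197472, minus strand), had no peak on its 484839 bp, the longest body in the family. The carnitine/acylcarnitine carrier Slc25a20, which admits fatty acids for oxidation, had 2 peaks over 61.3%.

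All 7 cofactor carriers were marked (interval 59.0 to 100%, beside 51.4% of all genes), over 12.3 to 71.5% of the body. Slc25a16, linked to coenzyme A (chr10:62920633-62946498, plus strand), had 1 peak of 18482 bp and fold enrichment 3.23 over 71.5%, wholly inside the gene. Slc25a17, the peroxisomal member of the family (chr15:81318911-81360812, minus strand), had the widest peak on any member, 31239 bp at fold enrichment 3.53, over 66.2%. The carriers of NAD (Slc25a51, 60.4%) and of folate or FAD (Slc25a32, 37.5%) were marked too, and Slc25a42, a coenzyme A carrier, had 25.5%. Slc25a26, the S-adenosylmethionine carrier that supplies mitochondrial methylation, had the lowest share. Its 6 peaks included one of 29726 bp and fold enrichment 3.63, of which 14.2% lay on Slc25a26 and the rest ran into Lrig1, an epidermal stem cell gene covered over 53.1%. Its other 5 peaks had fold enrichments between 2.56 and 2.85.

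All 4 iron and glutathione carriers were marked (interval 39.8 to 100%), beside 51.4% of all genes. Slc25a28, the general mitoferrin (chr19:43663801-43674881, minus strand), had 1 peak of fold enrichment 2.80 over 29.3% of its body. Slc25a37, the mitoferrin of red cell precursors (chr14:69241848-69285112, minus strand), had 2 peaks over 8.43%, and the first began 35509 bp from the start. Its peaks had fold enrichments of 3.23 and 2.93, both above that of Slc25a28, so the covered share and the fold enrichment ordered the mitoferrins differently. The glutathione carriers Slc25a39 and Slc25a40 were covered over 59.1% and 37.4%.

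Of the 3 uncoupling-protein-like members, Slc25a30 (chr14:75760117-75787037, minus strand), best known from kidney, held the highest fold enrichment among the 47 Slc25a genes, 3.95 with a −log10 P of 6.36. That peak was only 438 bp wide, and the other 4 peaks on the gene had fold enrichments of 2.67 to 3.15, for a covered share of 53.5%. Slc25a27, best known from brain, had 5 peaks over 63.2%, with a fold enrichment of 3.61 at the 3′ end. Slc25a14 had 1 peak of 298 bp over 0.766%, the smallest share of any marked member. Of the remaining 8 members, most of unknown substrate, 5 were marked (62.5%, beside 51.4% of all genes). They were Slc25a48, classed here as a choline carrier (51.9%), Slc25a46 (47.2%), Slc25a45 (20.6%), Slc25a53 (4.99%) and Slc25a47 (3.12%). Slc25a46 acts in the outer membrane in mitochondrial dynamics. Slc25a34 (4998 bp), Slc25a35 (6235 bp) and Slc25a43 (chrX:36743659-36777202, plus strand, 33544 bp) had no peak.

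Of the 4 pairs of members that lie next to each other, 2 had like covered shares and 2 did not. On their GENCODE models Slc25a29 and Slc25a47 start 162 bp apart in opposite directions and were covered over 3.57% and 3.12%. The peak of Slc25a47 lay outside its shorter RefSeq span of 6983 bp, so the values of this pair depend on the gene model. Slc25a41 and Slc25a23, 2056 bp apart, were both at 0%. Slc25a54 at 0% lay 6461 bp upstream of Slc25a24 at 47.2%. Slc25a43 at 0% lay 18448 bp upstream of Slc25a5 at 55.3%. In both of the latter pairs the genes run in the same direction, and the promoters of these 4 genes are among those printed above.

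**Figure D2:**
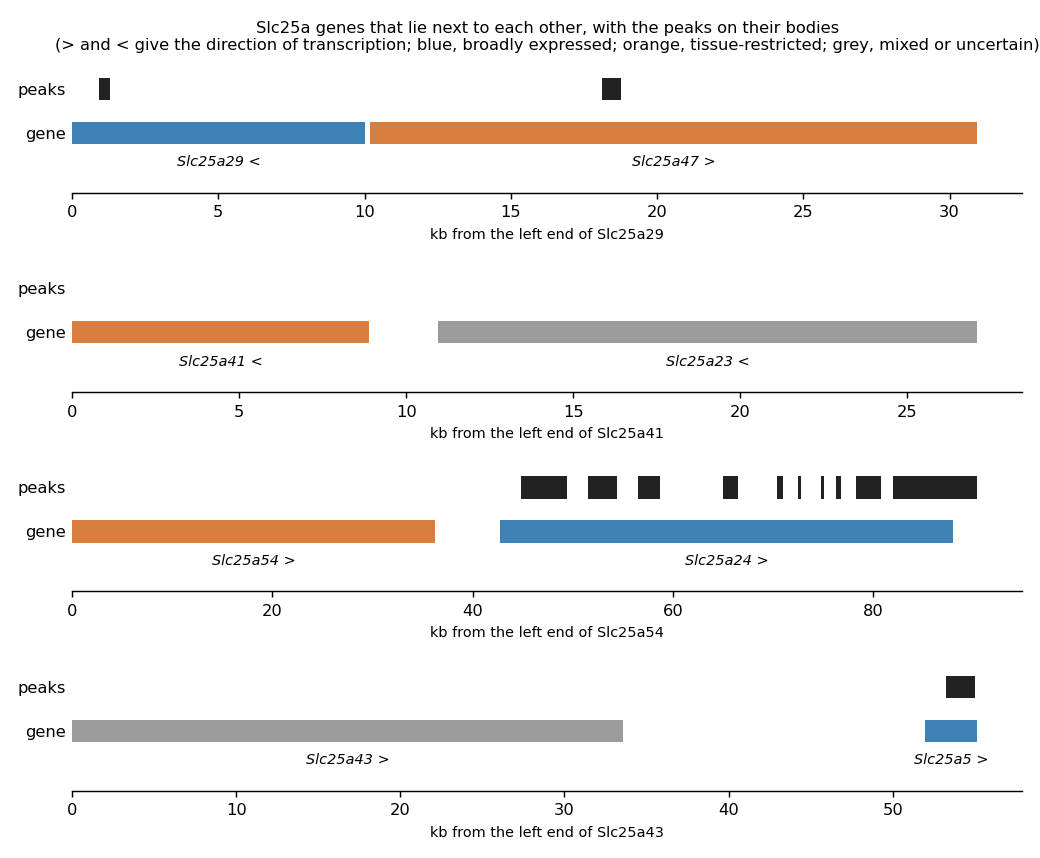
Each panel maps 1 pair of neighbouring Slc25a genes (coloured bars, position in kb from the left end of the left gene) and the H3K36me3 peaks on their bodies (black bars). Peaks are absent from Slc25a41, Slc25a23, Slc25a54 and Slc25a43, whereas 10 peaks lie on Slc25a24 and 1 on Slc25a5.

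The mark lay in the inner and 3′ parts of the carriers. Of the 39 marked members, 36 had more covered bases 3′ of the midpoint of the body (92.3%, interval 79.1 to 98.4%), beside 86.3% of all genes with a peak, which is within the interval. The exceptions were Slc25a2, Slc25a46 and Slc25a47. The first peak base lay a median of 4299 bp from the 5′ end, from 0 to 35509 bp, beside 3873 bp in all marked genes. None of the first 1000 bp was covered in 37 of 39. The median covered share of that stretch was 0% in marked members and 0% in all marked genes, so an uncovered start was common in both. The share of all marked genes with none of it covered is not given, so the count of 37 has no background. A peak crossed the 3′ end in 17 of 39 (43.6%, interval 27.8 to 60.4%), beside 60.7% of all marked genes. Exons were more fully covered than introns in 23 of the 38 marked members that have introns, with medians of 58.0 and 42.9%. Exon and intron cover was not computed over all genes, so this count has no background. The number of peaks went with gene length across the 39 genes (Spearman rho 0.64), and the covered share went slightly the other way (rho −0.34), as descriptions over genes of 1 library.

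**Figure D3:**
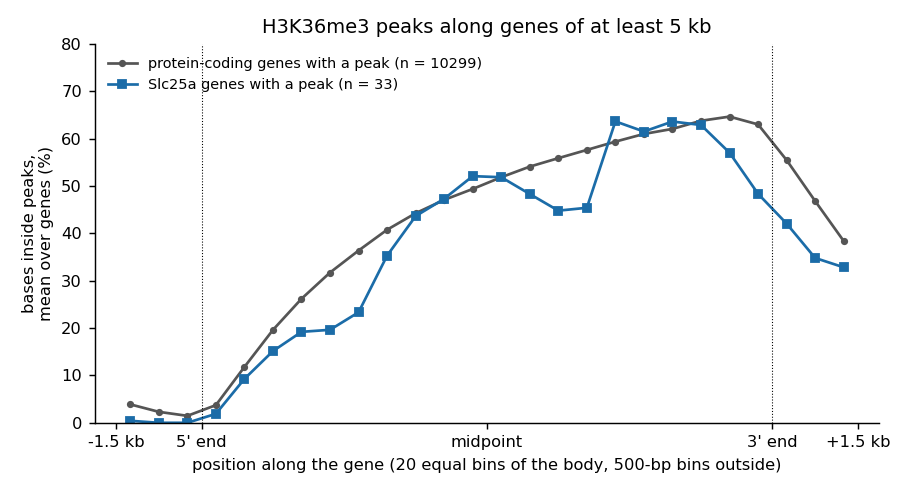
The mean percent of bases inside H3K36me3 peaks is drawn along marked genes no shorter than 5000 bp, in 20 equal bins of the body and 3 equal bins over 1500 bp on either side, for 33 Slc25a genes (blue) and 10299 protein-coding genes (grey). Members rise from 1.896% in the first body bin to 63.6% in the fifteenth and stand at 48.4% in the last, where all genes stand at 63.0%.

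Along genes of at least 5000 bp, the profile of the 33 marked members rose with that of 10299 genes but was not the same. The means were 1.896 and 3.726% in the first of 20 bins and 52.1 and 49.4% in the tenth. Members were lower at 23.3 against 36.4% in the sixth bin, 45.4 against 57.6% in the fourteenth and 48.4 against 63.0% in the last. Some values turned on the gene model. Slc25a46 had 1 peak of 25387 bp in the 5′ part of its GENCODE model, and its covered share was 47.2% on that model and 83.6% on the shorter RefSeq span. Slc25a47 kept its 1 peak on the GENCODE model of 20770 bp and lost it on the RefSeq span of 6983 bp. On RefSeq spans Slc25a10, Slc25a30 and Slc25a38 fell below 50% covered, at 48.6, 48.8 and 47.5%.

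The symbol in the deposited annotation and the position on a gene body did not name the same peaks. Of the 137 peaks on members, 104 carried the member's symbol and 33 that of another gene, and of the 120 peaks that carried a member's symbol 16 lay off its body. Slc25a14, Slc25a33, Slc25a37, Slc25a42, Slc25a44 and Slc25a46 carried a peak on the body but were named by none. All 4 peaks on Slc25a33 were listed under the gene model Gm13068, and the peak of 9390 bp on Slc25a44 under Pmf1. The annotation placed 55 of the 137 peaks in its promoter class, 47 in introns, 18 in 3′ UTRs, 16 in exons and 1 in a 5′ UTR. The promoter class held the peak over Slc25a3 that starts 775 bp inside the gene and runs through its 3′ end.

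The CpG ratio is the number of CpGs over that expected from the C and G content, and it was computed in the 300 bases around the GENCODE 5′ end of all 47 members. The median was 0.655 in the 39 marked members, from 0.110 to 1.11, and 0.492 in the 8 unmarked ones, from 0.0383 to 0.779, so the ranges overlapped. Over all genes the medians were 0.741 with a peak and 0.256 without. Broadly expressed members had a median of 0.792, restricted members 0.564 and mixed members 0.638. Slc25a31 at 0.779 was the unmarked member with the highest ratio, and Slc25a34, with 1 CpG, the one with the lowest at 0.0383. Slc25a18 at 0.110 and Slc25a22 at 0.278 were marked with few CpGs.

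**Figure D4:**
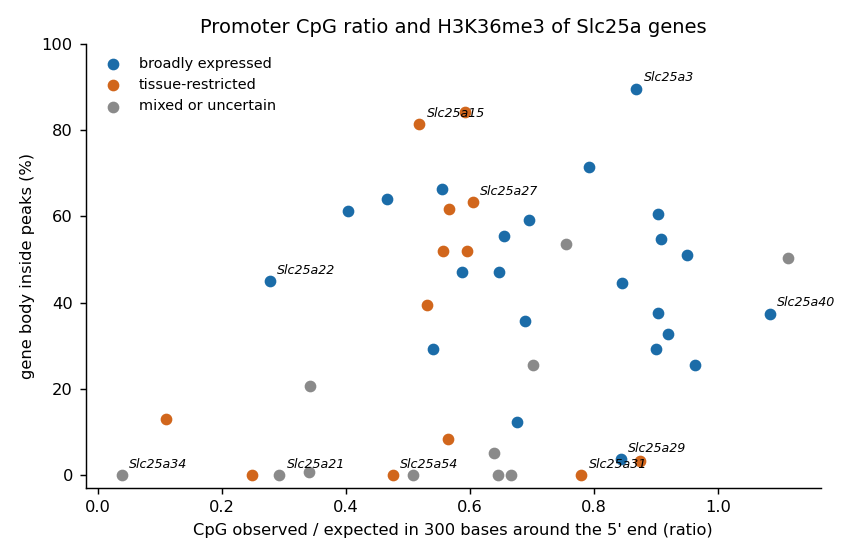
Each point is 1 of the 47 Slc25a genes, with the CpG observed to expected ratio in 300 bases around its 5′ end on the x axis, the percent of its body inside H3K36me3 peaks on the y axis and colours for the known breadth of expression. The 8 genes at 0% reach ratios from 0.0383 to 0.779, within the span of the marked genes.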

How the data were processed

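H3K36me3 ChIP-seq was read from 1 library of KCs. According to the methods and the submitters' processing notes, the authors trimmed the reads, used Bowtie2 2.2.6 for alignment to GRCm38 and MACS2 2.1.1, with a P cut-off of 0.01, for peak calling, and ChIPseeker for annotation. Whether MACS2 had the input as its control is not stated in the methods or labels. Peak names run to 45584, and 45575 peaks were analysed here. The deposited table gives for each a fold enrichment (a ratio), −log10 P and −log10 q values, a width, a class and the gene with the nearest start. The smallest deposited −log10 p-value was 2.76 and the smallest −log10 q-value 1.31. No peak thus lay near the stated P cut-off of 0.01, and every q was below 0.05. Whether a q threshold was also applied is not stated in the methods. The methods do not say whether peaks were called as narrow or as broad ones, and peak widths ran from 247 to 104767 bp. Several peaks can lie on 1 gene, and peaks within a gene are not independent.

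Peaks were intersected with GENCODE vM21 gene bodies by 1-based coordinates using Python 3.11.15, NumPy 2.4.6 and pandas 2.3.3, and intervals came from SciPy 1.17.1. Counting code was tested on simulated data. The covered share is the percent of body bases inside peaks. Members and lists were chosen with earlier results of these data known. Named in full were the 5 members with the largest covered share, the 5 with the highest fold enrichment, the 5 longest without a peak, and paralog sets that mix expression classes. The RefSeq promoter table held 36 of 47 members, too few for a comparison, so CpG ratios were taken from the genome sequence at GENCODE 5′ ends, which differs from the planned windows. Alternatives varied the peak threshold, merging of peaks, the overlap, shared bases and gene models. For 1 member no values are reported here by name. Depth was unknown, so values carry no counting error of reads.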

Additional observations from a re-analysis of the deposited data

How the results depend on the processing

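With peaks of P below 1e-05 alone, 13 members had a peak on the body in place of 39 (27.7%, beside 24.6% of all protein-coding genes). Under that setting 10 were assigned a peak in place of 34, and 5 were covered over at least 50% in place of 18. Of broadly expressed members 7 had a peak in place of 23, and of tissue-restricted ones 4 in place of 10. More covered bases lay 3′ of the midpoint in 10 members in place of 36. When at least 2 assigned peaks were required, 18 members remained of 34. The other 34 of 41 alternatives moved less. A count changed by less than 1.5 times, or the CpG difference by less than 1 SD of the members' ratios. Among them were at least 10% of the body covered (34 members) and at least 1000 bp covered (36). A fold enrichment of at least 3 left 30 members on the body (63.8%, beside 42.6% of all protein-coding genes). Leaving out bases on other protein-coding genes gave 38, without Slc25a2 (80.9%, beside 48.0% of all). Apart from the fold enrichment and shared-base settings and the 13 members with P below 1e-05, counts under the alternatives have no background share here. Whether those counts stood above the background is thus not known. Merging peaks could not change the number of members with a peak, because that count used unmerged peaks. Almost all neighbouring peaks on members already lay more than 1000 bp apart, so merging could hardly change the other counts. The merged alternatives therefore say little about how stable the counts are. The difference in median CpG ratio between marked and unmarked members was 0.163, and it was 0.0348 with P below 1e-05 and 0.102 with at least 10% of the body covered. The difference of 0.163 is smaller than 1 SD of the members' ratios, so its loss would not count as moved under this rule. Chosen after seeing the data, RefSeq gene spans gave 38, without Slc25a47, and peaks with at least 50% of their bases on the member gave 37, without Slc25a2 and Slc25a18. With 1 library and no read counts, an unmarked gene may lie under the caller's threshold, and the lowest fold enrichment of any peak was 2.17. No paired analysis was possible because the ChIP and the input had 1 library each and the input was not analysed here.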

Other observations

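Genes that work with the carriers were described in the same way. All 10 genes of the carrier import route, from the outer membrane receptors Tomm20, Tomm22 and Tomm70a and the pore Tomm40 to the inner membrane insertase Timm22 with its partners, had a peak on the body, over 29.6 to 71.5% with a median of 53.7%. All 11 genes of other solute routes had one as well, from 0.102% in Mpc1, a subunit of the pyruvate carrier, to 83.8% in Letm1, a cation exchanger of the inner membrane. The voltage-dependent channels of the outer membrane, Vdac1, Vdac2 and Vdac3, were covered over 55.0, 61.2 and 52.9%. The median covered share of all protein-coding genes with a peak was 46.4%, and 51.4% of all protein-coding genes had one.

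Of 5 genes of the same protein family that have other symbols, 3 had a peak, beside 51.4% of all protein-coding genes. Ucp2, the uncoupling protein of many tissues, was covered over 74.7% with a fold enrichment of 4.19, higher than that of any Slc25a gene. The outer membrane relatives Mtch1 and Mtch2 were covered over 81.3 and 88.6%. Ucp1 of brown fat and Ucp3 of muscle had no peak.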
